A study of Mus musculus with 20 samples.

Results

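Nupr1, the gene of a small stress-induced nuclear protein, was followed through 20 two-colour microarrays that set Spdef knockout gut against wild type gut. It was taken because its level was lower in the knockout in every group and lowest relative to wild type in adult colon, so its knockout over wild type ratios and its levels are given as a description, without a test. Every probe carrying the gene name Nupr1 was counted, which gave 1 probe of the 41174 on the array and 1 gene of the 17076 with a usable signal.

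Nupr1, also called p8 or Com1, is a short, highly basic protein without a fixed fold that was first found in the inflamed pancreas. It is found in the nucleus, binds chromatin partners such as the acetyltransferase p300, and is induced by starvation, endoplasmic reticulum stress and inflammation, in part through the transcription factor ATF4. Spdef is an ETS family transcription factor made by goblet cells and their precursors, and in the mouse gut it is needed for the maturation of goblet cells and, in the small intestine, of Paneth cells.

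The comparison was made in 4 groups. In each, RNA pools from mice lacking Spdef (Spdef-/-, called KO) were set against wild type pools: adult small intestine (postnatal day 30, 2 pairs of pools, 4 arrays), adult colon (postnatal day 30, 3 pairs, 6 arrays), fetal small intestine (embryonic stage E18.5, 3 pairs, 6 arrays) and fetal colon (embryonic stage E18.5, 2 pairs, 4 arrays). A pool held total RNA of whole small intestines or colons from 2 to 3 littermates, of which 500 ng was amplified and labelled, and each pair was hybridized in both dye orders. The labels name no tissue-specific allele, no mouse strain, no sex and no drug or diet. Whole organs were measured, so fewer cells that make Nupr1 and less Nupr1 RNA per cell cannot be told apart.

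Several libraries stood apart or went against their labels. The first 2 pairs of fetal small intestine were closer to each other than the array noise allows to be told apart (variance ratio 0.540, against 1.27 to 5.75 for the other pairs of pools within a group) and were averaged to 1 replicate, which left 9 replicates. In 2 fetal pairs that shared a slide, the markers of gut region went against the labels. Fetal small intestine pair 3 had log2 levels of 11.6 in KO and 11.6 in wild type for Hoxb13, a hindgut homeobox gene, and of 8.98 in KO and 8.76 in wild type for Lct, the lactase of small intestinal enterocytes. Fetal colon pair 1 had the opposite, with Hoxb13 at 6.93 in KO and 6.99 in wild type and Lct at 16.4 in both. These genes were picked from the region lists after their values were seen. The labels are kept below. The mean Nupr1 ratios and the counts of all genes called are also given without this slide. The fetal marker lists, the closest genes and the Atf3 difference between stages are given only with it. The array of adult colon pair 1 with KO in Cy5 correlated at 0.816 in signal with its own dye swap, and the same array of fetal colon pair 2 at 0.892, against 0.985 to 0.999 in the other pairs. Spdef itself was lower in KO on 20 of 20 arrays, by log2 ratios of -4.09 to -1.20.

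The Nupr1 probe lies on chromosome 7 at positions 126414612 to 126414671 of build mm8, on the minus strand, as annotated in the files. It carries the RefSeq accession of the Nupr1 transcript, but its place among the exons was not determined here. The promoter is shown because Nupr1 is a known ATF4 target and because the factor removed in these mice binds DNA directly. It covers the 250 bases before the start of the gene (RefSeq, GRCm38.p6, chr7:126625471-126625720, minus strand), and capitals mark a match to the C/EBP-ATF response element, the composite site through which ATF4 acts.
Nupr1 promoter: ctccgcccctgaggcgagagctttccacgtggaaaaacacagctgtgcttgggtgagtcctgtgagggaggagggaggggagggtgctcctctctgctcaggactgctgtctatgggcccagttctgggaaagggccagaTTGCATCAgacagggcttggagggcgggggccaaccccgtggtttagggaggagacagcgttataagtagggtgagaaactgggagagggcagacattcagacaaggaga
The element was searched as TGATGNAA on both strands and matched 1 time, on the strand opposite to the gene, 110 to 103 bases before the start. Of 32851 promoter windows of the same length, 3.45% held a match. The ETS core was searched as GGAA and as GGAT on both strands. GGAA occurred 3 times, which 54.7% of the windows equalled or passed, and GGAT did not occur, while 74.1% of windows held it. Such matches describe the letters of this window and are not evidence of binding.

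The Nupr1 probe was well above background in both channels on 20 of 20 arrays and saturated on 0 of them. KO was lower than wild type on all 20 arrays, with log2 ratios of KO over wild type from -2.65 to -0.92. The 2 dye orders of a pair differed by 0.013 to 0.38 on the log2 scale. The plot of ratios by array shows both dye orders of each pair.

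**Figure D1:**
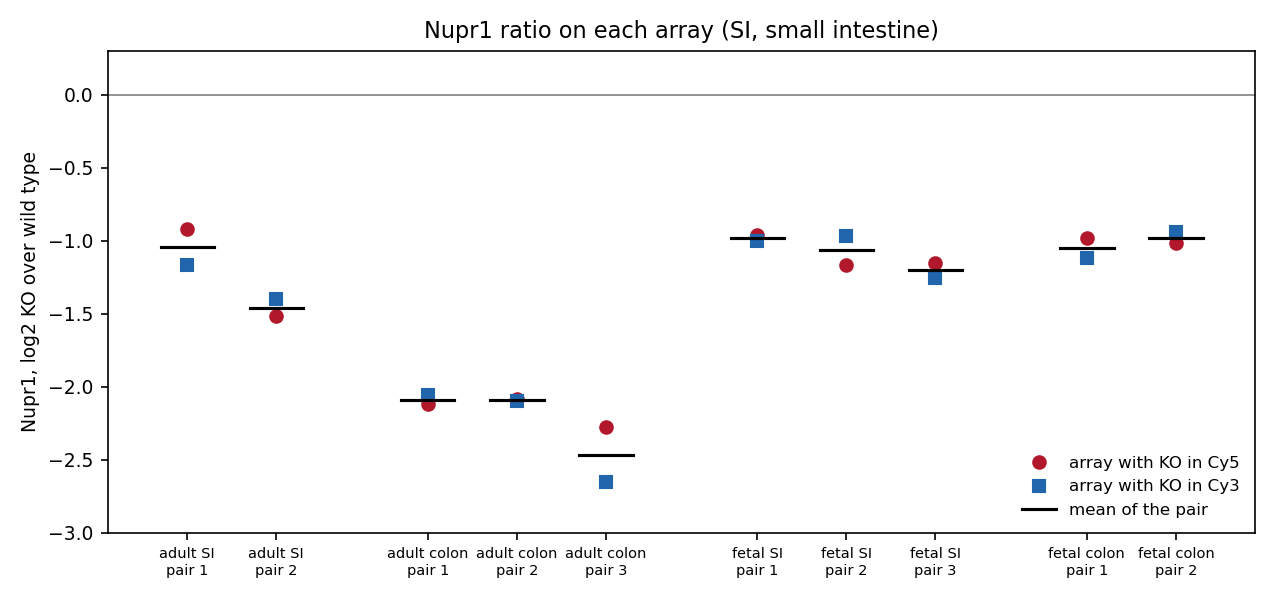
Log2 ratio of KO over wild type for Nupr1 (vertical axis) on each of the 20 arrays, by group and pair of pools (horizontal axis); circles and squares are the 2 dye orders and the bar is their mean. The 6 arrays of adult colon lie at -2.65 to -2.06, and the other 14 arrays at -1.52 to -0.92.

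In adult colon the arrays with KO in Cy5 gave log2 ratios of -2.12, -2.08 and -2.28 in pairs 1, 2 and 3, and the arrays with KO in Cy3 gave -2.06, -2.10 and -2.65. Pairs 1 and 2 were nearly alike, at -2.09 each, and pair 3 was the lowest at -2.46. The mean was -2.21 ± 0.22 (SD, n = 3), a 4.64-fold lower signal in KO, and 6 of the 17076 genes had a lower ratio in that group.

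Adult small intestine gave log2 ratios of -0.92 and -1.16 in pair 1 and of -1.52 and -1.40 in pair 2, with KO in Cy5 named first. The pairs lay at -1.04 and -1.46, further apart than the dye orders of either, and averaged -1.25 ± 0.29 (SD, n = 2), or 2.38-fold lower in KO. All 4 arrays lay above the highest adult colon array.

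The fetal groups were the most even. In fetal small intestine the ratios were -0.98 in pair 1, -1.07 in pair 2 and -1.20 in pair 3, which gave -1.11 ± 0.13 (SD, n = 2, pairs 1 and 2 as 1 replicate) and a 2.16-fold lower signal. In fetal colon they were -1.05 in pair 1 and -0.98 in pair 2, a mean of -1.01 ± 0.051 (SD, n = 2) and a 2.02-fold lower signal. Without the slide whose region markers went against the labels, 1 replicate was left in each fetal group, at -1.02 for fetal small intestine and -0.98 for fetal colon. The ratios of adult small intestine and of both fetal groups overlapped, and adult colon overlapped none of them.

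Some slides held adult colon beside another group. The order on them follows from the ranges above, so it is a description and no separate support. On the slide shared by adult colon pair 2 and adult small intestine pair 2 the Nupr1 ratios were -2.09 and -1.46. On the slide shared by adult colon pair 3 and fetal colon pair 2 they were -2.46 and -0.98.

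The level of Nupr1, as log2 intensity of each channel scaled between arrays, differed between the genotypes within each pair and between gut regions. Adult colon had levels of 14.1, 13.2 and 13.6 in KO pools 1, 2 and 3, against 16.2, 15.3 and 16.0 in wild type pools. The 2 arrays of pair 1 differed in level. The array with KO in Cy5, which stood apart, gave 14.5 in KO and 16.6 in wild type. The other array gave 13.7 in KO and 15.8 in wild type. The adult colon means below include both. Adult small intestine had 11.9 and 10.9 in KO pools, against 12.9 and 12.3 in wild type pools. In both adult groups the KO and wild type levels did not overlap.

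Adult colon was 4.81-fold above adult small intestine in KO pools and 9.38-fold above it in wild type pools. The lower KO levels of adult colon were still 2.02-fold above the wild type levels of adult small intestine, by the group means.

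Fetal small intestine had KO levels of 9.60, 9.61 and 13.3 in pairs 1, 2 and 3, against 10.6, 10.7 and 14.5 in wild type. Fetal colon had KO levels of 9.37 and 13.5 in pairs 1 and 2, against 10.4 and 14.5 in wild type. Within each fetal group 1 pair was thus far from the rest. Fetal small intestine pair 3 was 13.0-fold above pairs 1 and 2 in KO and 14.7-fold above them in wild type. Fetal colon pair 2 was 17.7-fold above pair 1 in KO and 16.9-fold above it in wild type.

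**Figure D2:**
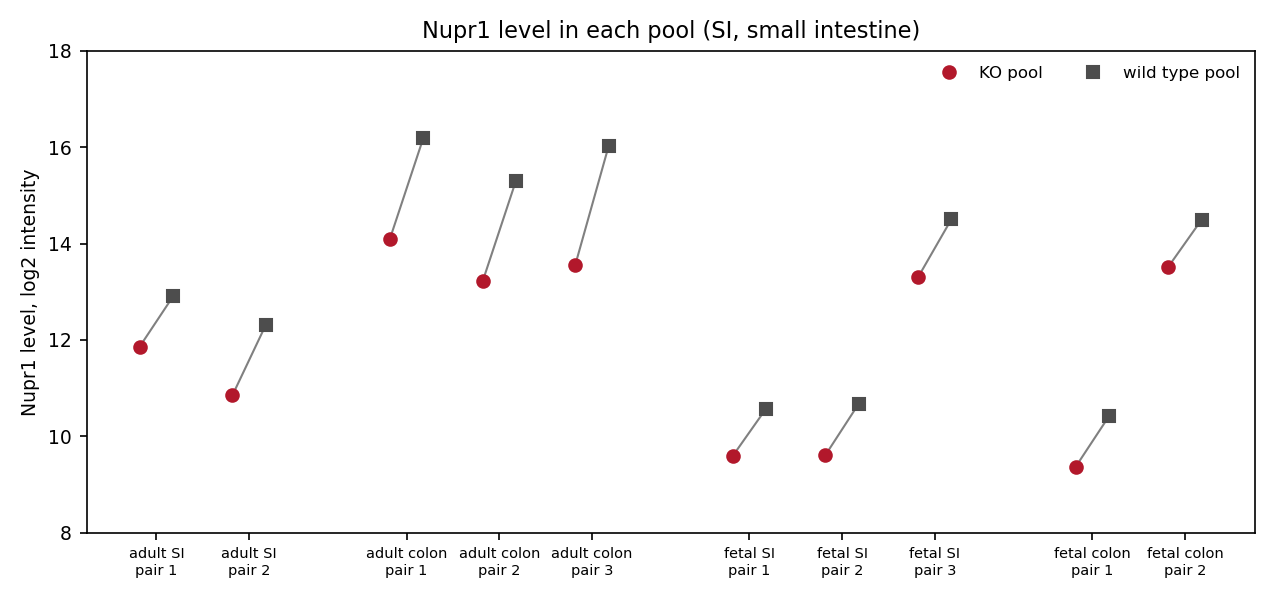
Nupr1 level as log2 intensity (vertical axis) in the KO pool (circle) and the wild type pool (square) of each pair, by group (horizontal axis); each point is the mean of 2 dye orders and a line joins a pair. KO is below wild type in all 10 pairs, and the levels of the fetal pairs fall into a low set near 9 to 11 and a high set near 13 to 15.

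These levels followed the region markers of the pools rather than the labels of the fetal pools. For each pool the median deviation of 15 small intestine markers was taken from that of 11 colon markers, so that a positive value stands for a colon profile. Wild type values were 3.42 to 3.73 in adult colon, 1.81 in fetal small intestine pair 3 and 1.76 in fetal colon pair 2. They were -2.86 and -3.17 in adult small intestine, -3.05 and -3.14 in fetal small intestine pairs 2 and 1, and -3.32 in fetal colon pair 1. The 2 fetal pairs with a colon profile had the high Nupr1 levels, and the 3 fetal pairs with a small intestine profile had the low ones, in both genotypes. The pair of high level and the pair of low level on the shared slide were hybridized together, at 13.3 and 9.37 in KO and 14.5 and 10.4 in wild type. The part of sample identity in these fetal levels was not tested.

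**Figure D3:**
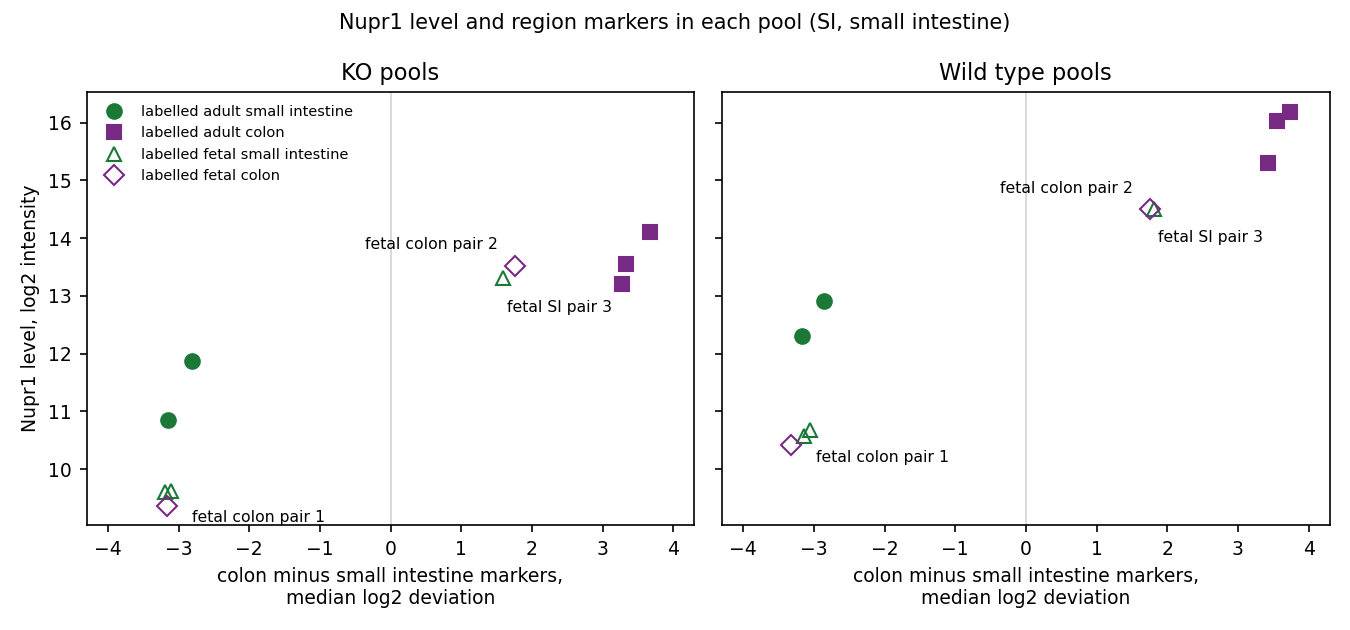
Nupr1 level as log2 intensity (vertical axis) against the colon minus small intestine marker value (horizontal axis, median log2 deviation) for KO pools (left) and wild type pools (right); symbols give the labelled group. The pools with positive marker values hold every Nupr1 level above 13 in both panels, and the fetal pairs named in the panels are those discussed in the text.

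By level the wild type pools ran in the order adult colon, the 2 fetal pairs with a colon profile, adult small intestine, and the 3 fetal pairs with a small intestine profile. Among KO pools, adult colon and the fetal pairs with a colon profile overlapped, at 13.2 to 14.1 and 13.3 to 13.5, and the rest of the order was the same. In wild type the mean of adult colon was 2.54-fold above fetal colon pair 2, and in KO it was 1.08-fold above it. Adult small intestine was 3.37-fold above fetal small intestine pairs 1 and 2 in KO and 3.95-fold above them in wild type. The ratio did not follow the level in the fetal pools, since pools whose KO levels spread over 17.7-fold had ratios between -1.20 and -0.98.

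Spdef, the deleted gene, and Nupr1 were lower by different amounts in the same pools. The log2 ratios of Spdef were -1.68 and -2.86 in adult small intestine pairs 1 and 2, where Nupr1 had -1.04 and -1.46. They were -3.30, -3.80 and -3.96 in adult colon, where Nupr1 had -2.09, -2.09 and -2.46. The 3 fetal small intestine pairs had Spdef ratios of -1.45, -1.96 and -3.42, beside Nupr1 ratios of -0.98, -1.07 and -1.20. The 2 fetal colon pairs had Spdef ratios of -1.63 and -2.77, beside Nupr1 ratios of -1.05 and -0.98. The level of Spdef was 7.22 to 8.84 in KO pools, against 9.30 to 12.1 in wild type pools. Spdef was well above background on 20 of 20 arrays in KO and 20 of 20 in wild type. Its KO signal was dim, and the background offset makes such ratios smaller in size, so its ratios are given without an order against those of Nupr1.

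Marker genes of other cell types were read in the same pools. They give RNA levels and not the number of cells. Over all genes, limma called 9.59% in adult colon at an adjusted p under 0.05 (3.93% higher and 5.66% lower in KO), 0.398% in adult small intestine (0.234% lower), 0.439% in fetal small intestine (0.31% lower) and 0.287% in fetal colon (0.176% lower). The 1638 calls of adult colon were 317 without adult colon replicate 1 and 57 with median centring. Of 15 goblet cell genes tested, 9 were lower and 1 higher in KO in adult colon, 2 were lower in adult small intestine, and 4 were lower in each fetal group. At an unadjusted p under 0.05 in limma 11 of 15 were counted for adult colon and 10 for each other group. These were 73.3% and 66.7% of the list, beside 27.6% of all genes in adult colon and 6.51% to 12.1% elsewhere. The goblet median in the fit was -0.72 for fetal small intestine and -0.49 for fetal colon. The adult medians were -0.44 for colon and -0.37 for small intestine. The median log2 ratio of the goblet list ran from -0.98 to -0.16 over the 10 pairs. The summed goblet signal, in units of 1000 of intensity, was 706 to 988 in KO and 810 to 1034 in wild type in adult colon, and 502 to 596 in KO and 543 to 545 in wild type in adult small intestine. It was 192 to 435 in KO and 281 to 571 in wild type in fetal small intestine, and 201 to 432 in KO and 268 to 504 in wild type in fetal colon. The highest of fetal small intestine were those of pair 3 and the lowest of fetal colon those of pair 1. The region markers of these pairs went against the labels. The part of goblet cells in the Nupr1 ratio was not tested.

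Paneth cell genes were lower in KO beside Nupr1 in adult small intestine and not in adult colon. Of 12 tested, 7 were lower in KO in adult small intestine and 2 in fetal small intestine. In fetal colon 0 passed in limma (1 at an unadjusted p under 0.05, 8.33% of the list beside 6.51% of all genes). In adult colon, where Nupr1 had its lowest ratio, 2 of these genes were higher. Their median log2 ratio was -1.01 and -1.60 in adult small intestine pairs 1 and 2, where Nupr1 had -1.04 and -1.46. It was 0.20, 0.079 and 0.29 in adult colon pairs 1 to 3, -0.69 to -0.53 in fetal small intestine and -0.20 and -0.15 in fetal colon. Their summed signal in adult small intestine was 447 to 624 such units in KO pools and 1378 to 1550 in wild type pools. In adult colon it was 72.7 to 168 in KO pools and 16.7 to 45.3 in wild type pools. In fetal small intestine it was 4.00 to 86.0 in KO pools and 5.92 to 128 in wild type pools, and in fetal colon 5.62 to 71.5 in KO pools and 3.77 to 79.2 in wild type pools. The lowest of fetal small intestine were those of pair 3 and the highest of fetal colon those of pair 1. The region markers of both pairs went against the labels. The difference between the Paneth list and Nupr1 was not tested.

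Pancreatic acinar genes were read because Nupr1 is made in the pancreas, which adjoins the gut at dissection. None of 21 tested passed in any group in limma. In adult colon 11 had an unadjusted p under 0.05, 52.4% of the list beside 27.6% of all genes. In adult small intestine, fetal small intestine and fetal colon 0 did, beside 12.1%, 7.54% and 6.51% of all genes. Their median log2 ratio was -2.20 in adult colon pair 1, -0.051 in pair 2 and -2.85 in pair 3, where Nupr1 had -2.09, -2.09 and -2.46. In adult small intestine pairs 1 and 2 it was 0.85 and -3.002, where Nupr1 had -1.04 and -1.46. In the fetal pairs it was -0.01 to 0.16. Of the 21 genes, 21 were lower in KO in adult colon pairs 1 and 3 and in adult small intestine pair 2, 12 in adult colon pair 2 and 1 in adult small intestine pair 1. In the fit the median over all genes was -0.003 in adult colon and -0.009 in adult small intestine. In adult colon pair 2 only 12 of the 21 were well above background in KO and 13 in wild type, so the median of that pair rests partly on genes not well above background. The same limit holds for the fetal pairs. The KO and wild type numbers were 12 and 12 in fetal small intestine pair 3, and 18 and 18 in pairs 1 and 2. In fetal colon they were 15 and 14 in pair 1 and 16 and 15 in pair 2.

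The 3 brightest of that list were Clps, the colipase of fat digestion, Reg1 and Zg16, the last 2 of which gut epithelium also makes. Summed without Reg1 and Zg16, the other 19 genes gave 136, 37.0 and 153 units of 1000 in KO pools of adult colon pairs 1, 2 and 3, against 680, 59.6 and 1011 in wild type pools. In adult small intestine they gave 322 and 9.09 in KO pools 1 and 2, against 166 and 68.8 in wild type pools. The part of pancreatic RNA in the level of Nupr1 was not tested.

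Immune, mesenchymal and absorptive cell lists were read in the same way. Over the 10 pairs the median log2 ratio was -0.02 to 0.22 for macrophage genes, -0.02 to 0.38 for B and plasma cell genes, -0.32 to 0.24 for mesenchyme and smooth muscle genes and -0.19 to 0.07 for absorptive enterocyte genes. In adult colon 2 of 12 macrophage genes were higher and 1 lower in KO, 1 of 9 B and plasma cell genes was higher, 1 of 15 enterocyte genes was lower, and 0 of 13 mesenchyme and smooth muscle genes passed in limma. At an unadjusted p under 0.05 the counts there were 6, 5, 2 and 8, beside 27.6% of all genes. The mesenchyme and smooth muscle genes were lower in KO in 12 or 13 of 13 in each adult colon pair. This was also so for 13 of 13 in fetal small intestine pairs 1 and 2, but for 0 in pair 3. The number lower was 8 in each adult small intestine pair, and 3 and 6 in fetal colon pairs 1 and 2. The share of all genes lower in each pair was not counted. In the fit the median over all genes lay between -0.009 and 0.003 in the 4 groups. In adult small intestine 1 macrophage gene was lower and 1 enterocyte gene higher, and 0 of the 4 lists' genes passed in the fetal groups (1 to 2 in any list at an unadjusted p under 0.05, where any did).

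Genes around ATF4 were read next, since ATF4 drives Nupr1 under stress. Of 54 listed genes of the ATF4 and integrated stress response, 52 were tested. In adult colon 5 were higher and 3 lower in KO (limma, Benjamini-Hochberg over all genes), 15.4% of the list, beside the 9.59% of all genes. At an unadjusted p under 0.05 in limma the adult colon count was 16 of 52, or 30.8%, beside 27.6% of all genes. The median log2 ratio of the list was -0.02, beside -0.003 over all genes. In adult small intestine, fetal small intestine and fetal colon 0 of the 52 passed in limma. At an unadjusted p under 0.05 the counts were 9, 5 and 3 of 52, or 17.3%, 9.62% and 5.77%, beside 12.1%, 7.54% and 6.51% of all genes. The median of the list was -0.076, -0.046 and -0.012 in those groups, beside -0.009, 0.003 and -0.001 over all genes.

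Atf4 itself, the factor at the head of this response, had log2 ratios of -0.01 in adult colon, -0.04 in adult small intestine, -0.10 for fetal small intestine and 0.003 for fetal colon, and did not pass in any. Its targets Ddit3 (CHOP), Trib3, a pseudokinase that restrains ATF4, and Asns, the asparagine synthetase, did not pass either. In adult colon they were at -0.19, -0.10 and -0.10, where Nupr1 was at -2.21. In adult small intestine they were at -0.14, -0.06 and -0.36, in fetal small intestine at 0.007, -0.29 and -0.15, and in fetal colon at -0.14, 0.014 and -0.01. The lowest of these, Asns in adult small intestine and Trib3 in fetal small intestine, had adjusted p = 0.127 and 0.277 in limma (unadjusted p = 0.0015 and 0.0052). Chac1, an enzyme that degrades glutathione, had the lowest ratio of the list in adult colon, at -0.70, -0.77 and -0.62 in pairs 1 to 3, and did not pass (-0.69 ± 0.28, SE, adjusted p = 0.152, limma). That SE rests on the spread within all groups and not on these 3 pairs alone. Chac1 was at 0.29 and -1.64 in adult small intestine pairs 1 and 2.

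Atf3, a stress-induced partner of ATF4, rose in KO in adult colon, with log2 ratios of 0.56, 0.51 and 0.50 in the 3 pairs (0.52 ± 0.046, SE, adjusted p = 0.00159, limma). Cbs, which makes cystathionine, rose by 0.48, Slc1a4, a neutral amino acid carrier, rose by 0.36 (adjusted p = 0.002 and 0.00599, limma), and Pycr1, of proline synthesis, fell by 0.34 (adjusted p = 0.0121, limma). The other calls, named after their values were seen, were Psat1 and Shmt2 of serine and glycine synthesis, which rose by 0.41 and 0.26, and Eif2ak4 and Eif2ak3, the kinases GCN2 and PERK, which fell by 0.33 and 0.32. These last 4 calls were lost without adult colon replicate 1 or 2, Eif2ak3 also without each other replicate, and with median centring 0 of the 8 passed. Over the mean of the 4 groups Atf3 (0.14, adjusted p = 0.0426) and Pycr1 (-0.17, adjusted p = 0.0466) passed in limma, 2 of 52, where 1.79% of all genes were called (0.533% higher and 1.25% lower). Atf3 passed in 5 and Pycr1 in 9 of 21 settings, and both were lost without either replicate of fetal colon or of fetal small intestine. At an unadjusted p under 0.05 in limma the mean had 15 of 52, or 28.8%, beside 16.7% of all genes. Asns, Trib3 and Chac1 were among the 15, at -0.16, -0.11 and -0.39 (unadjusted p = 0.0028, 0.0166 and 0.0408, limma), and did not pass. Ddit3 and Atf4, at -0.12 and -0.04, were not among them (unadjusted p = 0.0613 and 0.401, limma).

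**Figure D4:**
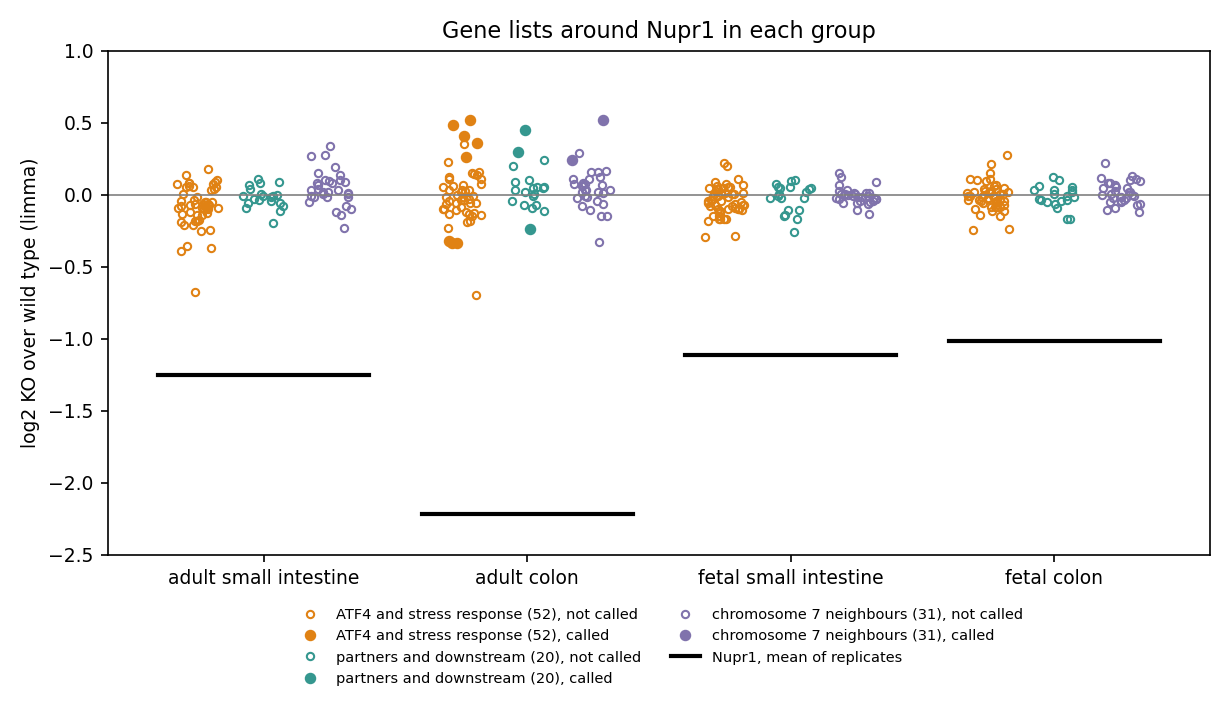
Log2 ratio of KO over wild type (vertical axis) of each tested gene of 3 lists in each group (horizontal axis), with filled points for genes past an adjusted p of 0.05 in limma and a black bar for the mean of Nupr1. In each group every listed gene lies above the Nupr1 bar, as do nearly all genes, since Nupr1 was taken for its low ratio. Counted from the lowest ratio, it ranked 7 of 17076 in adult colon and 26 to 30 in the other groups.

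The reported partners and downstream genes of Nupr1 are known largely from human and mouse cell lines. Of 22 listed 20 were tested, and in adult colon 2 were higher and 1 lower in KO, 15% of the list beside 9.59% of all genes. In adult small intestine, fetal small intestine and fetal colon 0 passed. At an unadjusted p under 0.05 the count was also 0 in each, beside 12.1%, 7.54% and 6.51% of all genes. In adult colon 4 of the 20, or 20%, had an unadjusted p under 0.05 in limma, beside 27.6% of all genes. Aurka, a mitotic kinase, was at 0.45 ± 0.081 (SE, adjusted p = 0.0163, limma). Ier3, an early response gene that NUPR1 controls in human pancreatic cells, was at 0.30 ± 0.066 (adjusted p = 0.0325, limma), and Snap25, a vesicle fusion protein, at -0.24 ± 0.053 (adjusted p = 0.0318, limma). All 3 calls were lost without adult colon replicate 1 or 2 and with median centring. The binding partners Ep300, the p300 acetyltransferase, and Msl1, of a histone acetylating complex, were at 0.02 and -0.07 in adult colon and did not pass. Relb (0.05), Cdkn1a (0.20), the cell cycle inhibitor p21, and Cebpb (0.14) did not pass in adult colon either, nor in the other groups.

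The gene most like Nupr1 in sequence is its paralog Nupr1l, also called Nupr2. One of its 2 probes was kept, well above background on 19 of 20 KO and 19 of 20 wild type channels. It was at -0.09 in adult colon and between -0.03 and 0.005 in the other groups, and did not pass in limma (adjusted p = 0.361 in adult colon).

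Neighbours of Nupr1 on chromosome 7 were read in the same fit. Within 300 kb of the probe 35 genes had a probe and 31 were tested. In adult colon 2 were higher in KO and 0 lower, 6.45% of the neighbours beside 9.59% of all genes. In adult small intestine, fetal small intestine and fetal colon 0 passed in limma. At an unadjusted p under 0.05 the counts there were 4, 1 and 0, beside 12.1%, 7.54% and 6.51% of all genes. The 4 were 12.9% of the neighbours and the 1 was 3.23%. In adult colon 10 of the 31, or 32.3%, had an unadjusted p under 0.05 in limma, beside 27.6% of all genes. The nearest were Sgf29, of a histone acetyltransferase complex, 25.7 kb away on the side of higher coordinates, and Il27, a cytokine subunit, 30.8 kb away on the other side. Sgf29 had a log2 ratio of 0.03 and Il27 of 0.07 in adult colon. The 2 that rose were Coro1a, an actin regulator of leukocytes (0.52 ± 0.077, SE, adjusted p = 0.00875, limma), and Lat, a T cell adaptor (0.24 ± 0.055, adjusted p = 0.0348, limma). Both calls were lost without adult colon replicate 1. In adult colon macrophage and B and plasma cell lists had median ratios of 0.15 and 0.28 beside them. Over the mean of the 4 groups Coro1a passed (0.23, adjusted p = 0.0466, limma), in 5 of 21 settings.

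The genes whose ratios were most like those of Nupr1 were found by the root mean square difference in log2 ratio over the 9 replicates, whose median over 17075 other genes was 1.59. Rap1gap, which switches off the small GTPase Rap1, was closest at 0.43. Its ratios were -1.51, -1.64 and -1.62 in adult colon, -0.82 and -1.21 in adult small intestine, -0.80 and -1.08 in fetal small intestine and -0.63 and -0.87 in fetal colon. Like Nupr1 it was lowest in adult colon, with 9 ratios that correlated at 0.95 with those of Nupr1. The next were Zfp945, a zinc finger gene (0.65), Apobec2, of the cytidine deaminase family (0.71), Hgfac, the protease that activates hepatocyte growth factor (0.72), Tpsg1, a tryptase (0.72), and Kcnk6, a potassium channel (0.77). None of these had its 3 adult colon ratios all below its other ratios, and the correlations with Nupr1 ran from -0.55 for Tpsg1 to 0.73 for Apobec2. Spdef ranked 583 by this measure, at 1.41. The probes of Zfp945, Apobec2 and Tpsg1 lie on chromosome 17, as does Spdef. The part of DNA linked to the deleted gene in their ratios was not tested.

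**Figure D5:**
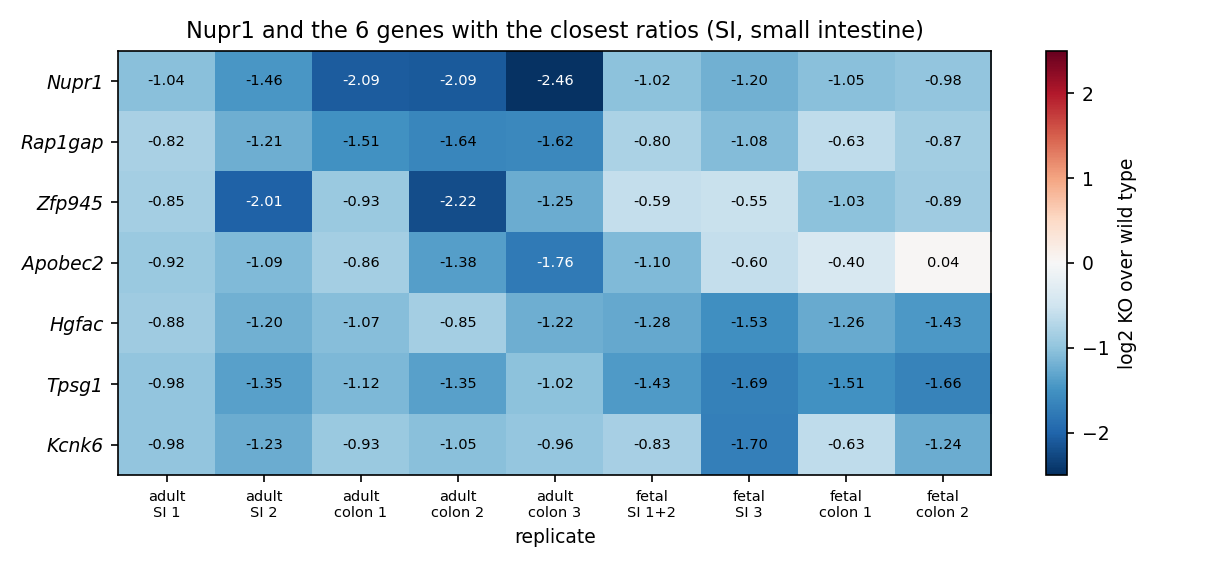
Log2 ratio of KO over wild type (colour and number) of Nupr1 and of the 6 genes with the smallest root mean square difference from it (rows) in the 9 replicates (columns). Rap1gap is the row that shares with Nupr1 its lowest values in the 3 adult colon replicates.

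The levels gave a partly different set. Over the 18 levels (9 replicates in KO and wild type) Rap1gap had the highest correlation with Nupr1, at 0.96, followed by Agr2, a protein disulfide isomerase of goblet cells (0.96), Rep15, a Rab effector (0.95), and Rgmb, a coreceptor of bone morphogenetic proteins (0.94). One probe without a gene name that also ranked among them was passed over. The median over all genes was 0.02. These points share pools, arrays and the split between colon and small intestine profiles, so the correlations are a description. Agr2 had its lower ratios in the fetal groups, at -1.15 for fetal small intestine and -1.13 for fetal colon, against -0.56 in adult colon, where Nupr1 had -2.21. Rap1gap was the only gene found by both measures. The Rgmb probe lies on chromosome 17, as does Spdef.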

How the data were processed

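Per the labels, Spdef KO and wild type RNA pools were hybridized together to two-colour Agilent arrays. Per the submitters' processing notes, spots were extracted with Agilent Feature Extraction 9.5.3. The deposited mean, background and processed signals of each channel are linear intensity values, and the deposited log ratio of a scanner file is log10 of red over green. The authors' series table was found to be log2 of KO over wild type when set against the scanner values, with a median of 0 and 47.8% to 72.2% of an array's values exactly 0. In a channel 39.7% to 71.6% of probes were well above background, and the number of arrays limits the precision.

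In R 4.3.3 with limma 3.58.1, mean signals were corrected by normexp with an offset of 50, which makes ratios of dim spots smaller in size, and each array was then loess-normalized with its control spots weighted 0. Spots flagged as outliers were dropped, every ratio was turned to KO over wild type, and dye swaps were averaged. Probes had to be well above background on every array of 1 group and genotype or more (24895 of 41174 did). The brightest probe represented its gene, for 17076 genes tested, against 27573 with no such filter. Names in the files were brought up to date through the RefSeq gene table (GRCm38.p6) for 23395 probes by accession, 6719 by current symbol and 2915 by older symbol, and 8145 kept the name given. One fit took the 9 replicates with a group term, leaving 5 residual degrees of freedom. Its tests were two-sided and adjusted by Benjamini-Hochberg over all genes, with a threshold of 0.05, and SE is that of limma. Nothing in the labels shows that pools came from separate litters, so p-values measure the spread between these pools. Levels are log2 intensities per channel after loess and Aquantile scaling. The fit was tested on simulated data.

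The members and the lists were chosen with earlier results of these data known. Named genes are Nupr1, Spdef, a panel of 13 genes, up to 4 called members of each list with the smallest adjusted p, the 6 genes of closest ratios, the 4 of closest levels and the 3 brightest pancreatic genes, with exceptions stated.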

Additional observations from a re-analysis of the deposited data

Results flagged for a closer look

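Atf3, the stress-induced partner of ATF4, was set apart because its KO effect differed between stages. Its mean log2 ratio of KO over wild type was 0.34 higher in adult than in fetal gut (adjusted p = 0.0362 for the difference itself, limma). It was 0.52 in adult colon and 0.10 in adult small intestine, against 0.02 in fetal colon and -0.07 in fetal small intestine. The adult small intestine pairs were at 0.20 and 0.007, so the adult value rests on the 3 adult colon pairs, at 0.50 to 0.56.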

How the results depend on the processing

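The Nupr1 ratio was below 0 in every group under every alternative run. Its levels under 4 other settings moved by less than their spread between replicates. That spread was an SD of 0.42 to 0.72 log2 in the adult groups, over both genotypes. For the fetal groups it was 2.62 to 2.93 log2, as each holds a replicate of low and a replicate of high level. Against so wide a spread the comparison cannot show whether the fetal levels were stable. Without the slide whose region markers went against the labels, the mean ratio of the 4 groups was -1.37, against -1.40 with it. The fetal colon ratio was -1.14 with the scanner software's processed signals, -1.19 with median centring and -1.14 in the series table, and the fetal small intestine ratio was -0.98 with median centring. Leaving out replicates in turn gave -1.46 to -1.04 in adult small intestine, -2.28 to -2.09 in adult colon, -1.20 to -1.02 in fetal small intestine, -1.05 to -0.98 in fetal colon and -1.45 to -1.35 for the mean.

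Replicate numbers do not pair the pools: deviations correlated at -0.07 to 0.16 for the same number and -0.16 to 0.16 for others, across genes. With the number as a replicate block (fetal small intestine pairs 1 and 2 taken as number 1), the fetal colon ratio was -1.07 and it changed no call count by over 1.5 times (1648 genes called in adult colon).

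Counts of all genes called moved more, and the cause was not tested except where fewer replicates entered. The counts were 68 (adult small intestine), 1638 (adult colon), 75 (fetal small intestine), 49 (fetal colon) and 305 (mean of the 4). Processed signals gave 136 calls (adult small intestine), 905 (adult colon) and 90 (fetal colon). With median centring it was 20, 57, 10, 5 and 74 in the same order, and 19.3% of the adult colon calls were higher in KO, against 41.0%. With fetal small intestine pairs 1 and 2 separate it was 133 (adult small intestine), 344 (fetal small intestine) and 746 (mean). Without the slide named above it was 27, 780, 14, 28 and 46. With each group fitted alone, which gives no mean, it was 0 (1835 at an unadjusted p under 0.05), 165, 28 and 129. A trended and robust prior gave 13, 975, 31, 15 and 0 (2559 unadjusted). The series table gave 589 in adult colon, no background subtraction gave 106 in fetal colon, and leaving out the 2 arrays that stood apart, an alternative added after seeing the data, gave 77 there. Leaving out replicates gave 34 to 100, 317 to 1670, 31 to 77, 16 to 56 and 130 to 323.

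In adult colon, stress response calls (8) were 5 with processed signals, 0 with median centring, 3 with the group alone, 5 in the series table and 4 to 8 leaving out replicates. Partner calls (3) were 0 with median centring, the group alone and the series table, and 0 to 4 leaving out replicates. Neighbour calls (2) were 0 with median centring and the group alone, 4 with the fetal pairs separate, 1 without the slide, with the trended prior and in the series table, and 0 to 3 leaving out replicates. For the mean, stress response calls (2) were 4 with no background subtraction, 7 with the fetal pairs separate, 1 without the arrays that stood apart, 0 in 5 other settings (median centring, without the slide, slide as a random block, trended prior, series table) and 0 to 3 leaving out replicates. The 1 neighbour call of the mean was 0 in 9 settings (no filter, no background subtraction, processed signals, median centring, the series table, the trended prior, slide as a random block, without the slide, without the arrays that stood apart) and 0 to 1 leaving out replicates. In adult small intestine 0 to 1 stress response genes were called. Nupr1 has 1 probe, so no other probe could be tried. Groups of 2 or 3 pools limit every call.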
